A study of Homo sapiens with 15 samples.

Results

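The 10 genes described here are the SOX transcription factors SOX2, SOX4, SOX5, SOX6, SOX8, SOX9, SOX10, SOX11, SOX12 and SOX13, taken by their symbols from the 57820 gene identifiers of the count table. All 10 matched 1 identifier each, and all 10 were among the 28793 that were tested, for which a mean of 1 count or more over the libraries was required. The 15 RNA-seq libraries came from A673, a human Ewing sarcoma cell line with the fusion oncoprotein EWS/FLI, and no other line was profiled. The study used this line because, in its authors' experience, it alone grew reliably after EWS/FLI depletion and rescue. Each of 5 conditions had 3 libraries. iLuc cells carried an shRNA against luciferase with an empty vector, and kept their endogenous EWS/FLI. iEF cells carried the shRNA against EWS/FLI, which targets its 3′ untranslated region, with an empty vector. WT-EF, Δ22 (del22 in the labels) and DAF cells carried that same shRNA and a 3X-FLAG tagged cDNA, respectively of wildtype EWS/FLI, of a form without the EWS domain, and of a form with tyrosine to alanine changes in the EWS domain. In all 5 conditions the shRNA came by retrovirus on day 1 and the cDNA or empty vector on day 5, and selection in puromycin and hygromycin B lasted until day 16, so transduction and drug selection were common to controls and constructs. Libraries are numbered 1, 2 and 3 by replicate set, and every list of 3 values below follows that order.

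SOX proteins share a DNA-binding domain, the HMG box, with the sex-determining factor SRY. They bend DNA at short sites of the ATTGTT type and act together with partner factors such as POU and PAX proteins. The members fall into groups by the likeness of their HMG boxes. SOX2 belongs to SOXB1, whose members keep stem and neural progenitor cells undifferentiated. SOX4, SOX11 and SOX12 form SOXC, with activators expressed in neuronal and mesenchymal progenitors. SOX5, SOX6 and SOX13 form SOXD, which have no activation or repression domain of their own and work by pairing with other factors. SOX8, SOX9 and SOX10 form SOXE, the activators of the neural crest, with SOX9 also the master factor of cartilage. EWS/FLI binds DNA through the ETS domain of FLI, both at single ETS sites with a GGAA core and at runs of GGAA repeats (microsatellites), which in Ewing sarcoma cells it can turn into enhancers.

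Total counts per library ranged from 28659475 to 41859880, of which 13638 to 28877 fell on the 10 SOX genes. Levels are given as CPM (a gene's counts relative to the size of its library) on library sizes scaled by TMM, and per length as CPM per kb of merged exons. Reads on FLI1, which come from endogenous EWS/FLI and from the cDNA without distinction, stood at 49.4 ± 2.62 CPM (SD, n = 3, as in all values with ± below unless SE is named) in iLuc and 14.6 ± 1.44 in iEF cells (log2 fold change 1.77 ± 0.10 SE, adjusted p = 7.93e-09, edgeR). They stood at 17.6 ± 1.39 CPM in WT-EF, 31.2 ± 6.08 in Δ22 and 24.3 ± 2.64 in DAF cells, so the 3 constructs were not at equal FLI1 counts. Over iEF, FLI1 was higher with Δ22 (1.09 ± 0.10 SE, adjusted p = 0.000446) and DAF (0.74 ± 0.10, adjusted p = 0.000335), whereas WT-EF gave 0.27 ± 0.10 (adjusted p = 0.0538) and was higher in 3 of 3 replicate sets. FLI1 counts thus differed between constructs, and the part of this in the differences between constructs below was not tested. Whether the cDNAs hold the untranslated region that the shRNA targets is not given in the sources used here. Levels of the cDNAs or their proteins are therefore not read from these counts. Of 8 Ewing sarcoma markers 7 were tested, and 6 of these (NKX2-2, NR0B1, STEAP1, PRKCB, BCL11B and GSTM4) were higher in iLuc than in iEF cells. CD99, the surface protein used in diagnosis, had 0 to 3 counts under its identifier. Whether these counts reflect its level was not tested, and no absence of CD99 from the cells is read from them. The 11 markers of blood, epithelium, endothelium and melanocytes found in the table of 12 listed summed to between 1.44 and 3.14 CPM per library, with at most 33 counts for any of them.

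The nearest run of at least 4 unbroken GGAA units (TTCC on the other strand) to the start of a SOX gene is shown first. Such runs are the sites EWS/FLI is known for. They are given for SOX2, SOX6, SOX4, SOX5 and SOX9, and for SOX1, a SOXB1 gene outside the list. Sequences are from the plus strand of GRCh37 with 10 flanking bases on each side, and the capitals mark the repeat.
SOX2, chr3:181391404-181391455: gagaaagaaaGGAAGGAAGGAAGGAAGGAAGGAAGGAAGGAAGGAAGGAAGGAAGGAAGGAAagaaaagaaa
SOX6, chr11:16927773-16927828: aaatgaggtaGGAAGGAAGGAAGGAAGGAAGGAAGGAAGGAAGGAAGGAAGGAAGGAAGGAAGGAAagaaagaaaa
SOX4, chr6:21567078-21567093: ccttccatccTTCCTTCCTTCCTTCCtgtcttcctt
SOX5, chr12:24796315-24796330: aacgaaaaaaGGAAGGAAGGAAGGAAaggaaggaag
SOX9, chr17:70143351-70143366: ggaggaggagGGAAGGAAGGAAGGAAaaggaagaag
SOX1, chr13:112745050-112745097: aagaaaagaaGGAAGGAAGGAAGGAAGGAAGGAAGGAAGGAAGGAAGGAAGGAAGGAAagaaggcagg

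Among these, SOX2, SOX6 and SOX1 had long runs and SOX4, SOX5 and SOX9 the shortest run searched for. Only unbroken units were counted. Repeats that go on after a break, as in the flank of SOX5, were left out, so total repeat content was not compared. The SOX2 run had 13 units and lay 38258 bases upstream of the gene, and 10.8% of 20162 protein-coding genes had a nearest run at least as long. The SOX6 run had 14 units at 166635 bases upstream, with 7.63% of genes having a run at least as long nearest to them. The SOX1 run had 12 units and lay 23587 bases downstream of the gene's start. Runs of 4 units were nearest to SOX4 (26889 bases upstream), SOX5 (80837 bases upstream) and SOX9 (26190 bases downstream). SOX11, SOX12 and SOX13 likewise had 4 units nearest to them, at 18137, 18669 and 28391 bases upstream, SOX8 had 6 at 161562 bases and SOX10 had 8 at 172306 bases. No SOX member had a run within 5000 bases of its start, as 3.65% of protein-coding genes did, and the median distance over all these genes was 87058 bases. The runs are those of the reference genome, and their length in A673 cells and the binding of EWS/FLI to them were not measured here.

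The 250 bases before the start of SOX2, SOX4 and SOX5 are shown as RefSeq gives them on GRCh38.p14, 5′ to 3′ along each gene's own strand, since these members differ in their response. Capitals mark GGAA or TTCC, the core of the ETS site.
SOX2, chr3:181711675-181711924, plus strand: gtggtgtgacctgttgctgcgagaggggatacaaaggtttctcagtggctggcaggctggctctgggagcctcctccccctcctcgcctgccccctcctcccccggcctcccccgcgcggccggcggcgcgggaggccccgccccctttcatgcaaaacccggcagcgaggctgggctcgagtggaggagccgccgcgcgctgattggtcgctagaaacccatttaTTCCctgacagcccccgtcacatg
SOX4, chr6:21593501-21593750, plus strand: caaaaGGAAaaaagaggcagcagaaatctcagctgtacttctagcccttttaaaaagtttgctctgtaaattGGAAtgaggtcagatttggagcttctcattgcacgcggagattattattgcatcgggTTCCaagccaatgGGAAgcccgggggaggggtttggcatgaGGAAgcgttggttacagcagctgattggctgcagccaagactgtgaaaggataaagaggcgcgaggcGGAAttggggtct
SOX5, chr12:24562492-24562741, minus strand: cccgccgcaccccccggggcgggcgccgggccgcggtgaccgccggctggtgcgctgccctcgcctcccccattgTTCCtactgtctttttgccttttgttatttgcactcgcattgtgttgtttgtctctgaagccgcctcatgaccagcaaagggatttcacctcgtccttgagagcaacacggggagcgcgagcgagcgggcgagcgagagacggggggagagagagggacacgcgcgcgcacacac

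GGAA on either strand was found 6 times in the SOX4 window, and 9.14% of 35116 windows of this length held at least as many. The 5 SOX6 windows, at separate starts, held 2, 2, 2, 3 and 6. There was 1 match each in the SOX2 and SOX5 windows, 5 in that of SOX13 and 0 in that of SOX12, against a median of 3 over all windows. None of the windows of SOX2, SOX4, SOX5, SOX6, SOX12 and SOX13 held CCGGAA, a stronger ETS core that contains GGAA, on either strand, which 14.5% of all windows held. ATTGTT, a SOX site, searched on both strands, had 1 match in the SOX5 window and 0 in those of SOX2 and SOX4, while the 5 SOX6 windows had 0, 1, 0, 1 and 2, and 8.98% of all windows held it. Windows of SOX8, SOX9, SOX10 and SOX11 were not analysed here.

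Per length, SOX2, SOX4 and SOX11 were the main SOX transcripts of cells with EWS/FLI. In iLuc cells SOX2 led at 43.7 ± 7.76 CPM per kb and made up 43.6% of the summed level of the 10 genes, followed by SOX11 at 22.3 ± 2.97 and SOX4 at 21.7 ± 1.89 CPM per kb, whose libraries overlapped. SOX9, at 3.56 ± 0.95 CPM per kb, lay 6.11-fold below SOX4 and overlapped SOX12. In iEF cells 4 genes stood close together, SOX11 at 25.7 ± 1.20, SOX2 at 21.1 ± 3.79, SOX9 at 21.0 ± 0.60 and SOX4 at 16.1 ± 3.00 CPM per kb, where SOX2 overlapped each of the other three, SOX11 was above SOX9 and SOX9 above SOX4 in every library. Thus SOX9 made up 3.55% of the summed level in iLuc and 22.1% in iEF cells.

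The order in WT-EF cells was again led by SOX2 (48.3 ± 5.97 CPM per kb), then SOX4 (37.8 ± 3.31) and SOX11 (29.4 ± 8.53), the last pair overlapping, with SOX9 at 6.55 ± 0.34. In Δ22 cells SOX2, SOX11, SOX9 and SOX4 lay between 26.0 and 19.3 CPM per kb and each overlapped its neighbour. DAF cells had SOX4 first at 25.5 ± 4.26 CPM per kb, then SOX2 at 20.7 ± 3.13, SOX11 at 18.9 ± 1.57 and SOX9 at 16.9 ± 0.75, again with each overlapping its neighbour. The 6 other genes stayed below 6 CPM per kb in every condition, and SOX10 was last in all 5.

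**Figure D1:**
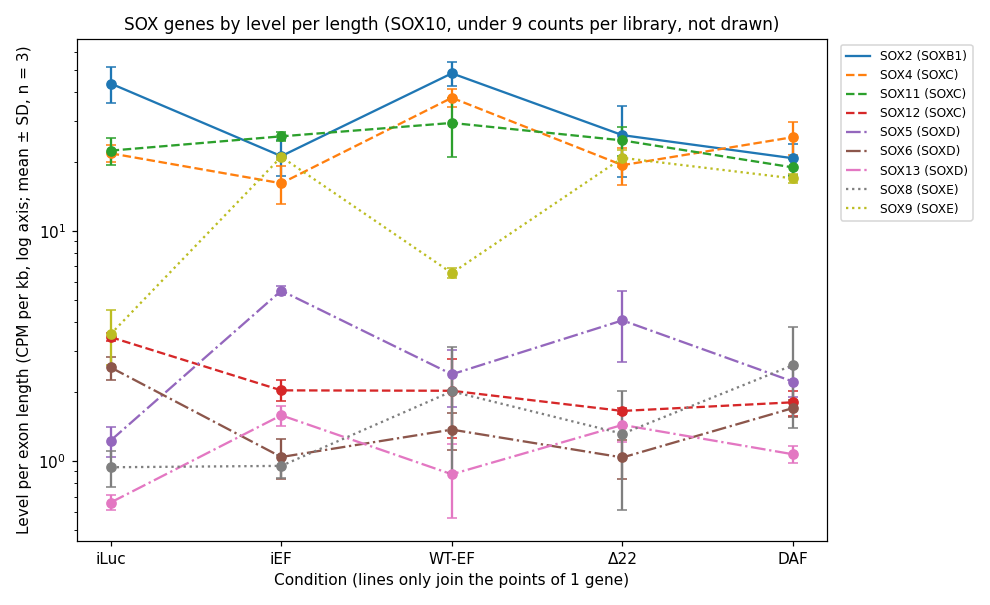
Level per exon length of 9 SOX genes (CPM per kb, log axis, mean ± SD of 3 libraries) in the 5 conditions; lines only join the points of a gene. SOX2 is first in iLuc and WT-EF cells, at 43.7 and 48.3 CPM per kb, and SOX9 is near the top in iEF, Δ22 and DAF cells and lower in iLuc and WT-EF cells.

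SOX2, the SOXB1 member (GRCh37 chromosome 3, 181429713 to 181432224, plus strand, a single exon), was high in iLuc and WT-EF cells and lower in iEF, Δ22 and DAF cells. It had 106, 92.0 and 131 CPM in iLuc and 50.2, 63.6 and 45.2 CPM in iEF cells. It had 123, 106 and 136 CPM in WT-EF, 49.6, 55.6 and 91.1 CPM in Δ22, and 45.3, 49.8 and 60.6 CPM in DAF cells. The values are of whole cultures, so fewer cells with a transcript and less of it per cell cannot be told apart. Every iLuc and WT-EF library was above every library of the other 3 conditions, with Δ22 replicate 3 just under the lowest iLuc library and well above the other 2 of its condition. SOX2 was 2.03-fold higher in iLuc than in iEF cells (log2 fold change 1.02 ± 0.18 SE, adjusted p = 0.000245). WT-EF raised it over iEF by 1.17 ± 0.18 on the log2 scale (adjusted p = 0.00013), and over DAF by 1.23 ± 0.18 (adjusted p = 0.000118). Each of these increases was seen in 3 of 3 replicate sets. WT-EF and iLuc differed by 0.15 on the log2 scale with a 95% interval of -0.24 to 0.55 (adjusted p = 0.609). For DAF against iEF the difference was -0.06, with an interval of -0.46 to 0.34 (adjusted p = 0.897).

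SOX2 lies within SOX2-OT, a long noncoding gene on the same strand (chromosome 3, 180707550 to 181554668), with which it shared no exon base in the annotation. SOX2-OT was at 2.44 ± 0.79 CPM in iLuc, 0.88 ± 0.42 in iEF, 2.31 ± 0.47 in WT-EF, 0.79 ± 0.26 in Δ22 and 0.88 ± 0.24 in DAF cells. It was higher in iLuc than in iEF cells (log2 fold change 1.502, adjusted p = 0.00145) and higher with WT-EF than with iEF (1.44, adjusted p = 0.00308) or DAF (1.40, adjusted p = 0.00405), as SOX2 was.

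Among the SOXC genes, SOX4, an activator of progenitor and tumor cells (chromosome 6, 21593982 to 21598850, plus strand, a single exon), rose with both WT-EF and DAF. Its levels were 96.8, 105 and 115 CPM in iLuc and 64.0, 93.2 and 77.7 CPM in iEF cells. They were 174, 203 and 175 CPM in WT-EF, 74.2, 106 and 101 CPM in Δ22, and 105, 146 and 121 CPM in DAF cells. WT-EF libraries were above all others, DAF libraries were above the iEF libraries and overlapped those of iLuc and Δ22, and Δ22 libraries overlapped those of iEF. WT-EF cells had 2.38-fold the iEF level (log2 fold change 1.25 ± 0.10 SE, adjusted p = 5.45e-07) and DAF cells 1.59-fold (0.67 ± 0.10, adjusted p = 0.000613). The direct difference of WT-EF over DAF was 0.58 ± 0.10 (adjusted p = 0.000484). WT-EF was also above iLuc, by 0.80 ± 0.10 (adjusted p = 8.17e-05), in 3 of 3 replicate sets. The increase of iLuc over iEF was smaller, 0.45 ± 0.10 (adjusted p = 0.00188), and did not pass without the replicate 1 libraries (adjusted p = 0.0543). Δ22 over iEF gave 0.26 ± 0.10 (adjusted p = 0.238), and DAF over Δ22 gave 0.41 ± 0.10 (adjusted p = 0.0625). Of the exon bases of SOX4, 3.45% lie opposite an antisense gene (ENSG00000283480) that was not analysed here.

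SOX11, a SOXC activator of neuronal development (chromosome 2, 5832516 to 5841517, plus strand, a single exon), was among the highest per length in every condition, and several of its calls depended on the fit. Of its exon bases 0.822% are shared with ENSG00000242540 on the same strand. It had 190.2, 231 and 181 CPM in iLuc and 220.2, 242 and 233 CPM in iEF cells. The rescued cells had 186, 269.9 and 339 CPM with WT-EF, 217, 193 and 257 CPM with Δ22, and 173, 154 and 182 CPM with DAF. The 3 WT-EF libraries were widely spread, and the DAF libraries were below every iEF library. WT-EF over DAF gave 0.62 ± 0.16 (log2, SE, adjusted p = 0.00759), which did not pass without the replicate 2 libraries (adjusted p = 0.0905). Against iEF, neither iLuc (-0.20 ± 0.16, adjusted p = 0.33) nor WT-EF (0.17 ± 0.16, adjusted p = 0.466) nor DAF (-0.45 ± 0.16, adjusted p = 0.0836) passed. SOX11 was lower than iEF in 3 of 3 replicate sets in both iLuc and DAF cells, and with only the 6 libraries compared and the replicate block iLuc (adjusted p = 0.0406) and DAF (adjusted p = 0.00624) passed. DAF also passed without a filter on low counts (adjusted p = 0.00172) and with DESeq2 on ComBat-adjusted counts (adjusted p = 0.031). Without WT-EF replicate 1, the lowest of its condition, WT-EF passed against iEF (adjusted p = 0.0436) and against iLuc (adjusted p = 0.00884), where the value with all libraries was 0.38 ± 0.16 (adjusted p = 0.113). That difference also passed without iLuc replicate 2 (adjusted p = 0.0463), without a filter (adjusted p = 0.00496) and with DESeq2 on ComBat-adjusted counts (adjusted p = 0.0398).

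SOX12, the third SOXC gene and the weakest activator of the 3 (chromosome 20, 306196 to 310868, plus strand, a single exon), had its highest libraries in iLuc cells. It had 16.9, 15.8 and 15.7 CPM in iLuc, 10.06, 10.02 and 8.32 CPM in iEF, and 7.17, 7.58 and 13.5 CPM in WT-EF cells. In Δ22 cells it had 7.91, 7.48 and 7.72 CPM and in DAF cells 7.38, 9.47 and 8.35 CPM. Only WT-EF replicate 3 came near the iLuc libraries. iLuc over iEF gave 0.77 ± 0.20 (log2, SE, adjusted p = 0.00546), whereas WT-EF over iEF gave -0.03 with an interval of -0.48 to 0.43 (adjusted p = 0.947). WT-EF was below iLuc by 0.79 ± 0.20 (WT-EF over iLuc -0.79, adjusted p = 0.0108), which was lost without the replicate 1 libraries (adjusted p = 0.23), the replicate 2 libraries (0.165), iLuc replicate 1 (0.0631), WT-EF replicate 1 (0.0931) or WT-EF replicate 2 (0.0737).

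**Figure D2:**
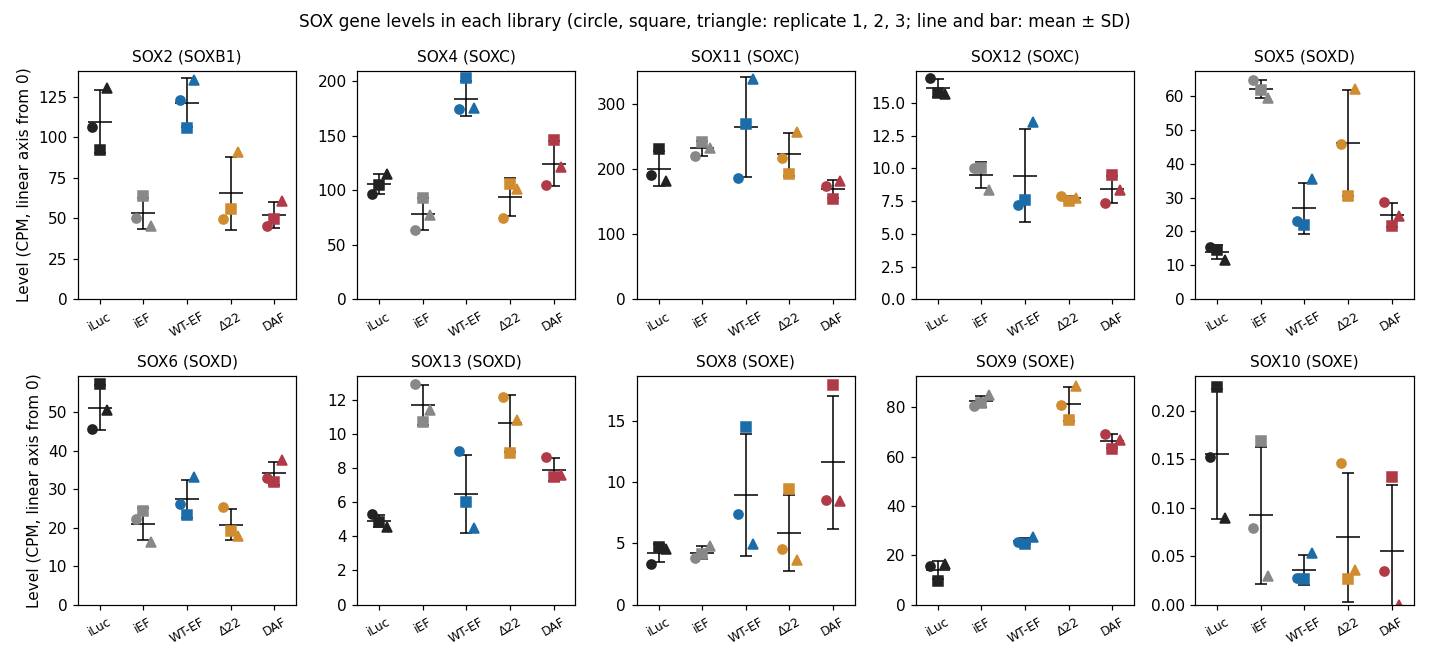
Level of each SOX gene in each of the 15 libraries (CPM, linear axis from 0 in every panel, circle, square and triangle for replicate 1, 2 and 3, line and bar for mean ± SD). SOX2 is high in iLuc and WT-EF cells, SOX4 is highest in WT-EF cells at 174 to 203 CPM, SOX5, SOX9 and SOX13 are high in iEF cells, and replicate 2 (square) is the highest SOX8 library of each construct condition.

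The SOXD genes SOX5 and SOX6, which work together with SOX9 in cartilage, went in opposite directions. SOX5 (chromosome 12, 23682438 to 24715478, minus strand) had 15.5, 14.4 and 11.6 CPM in iLuc and 64.7, 61.9 and 59.4 CPM in iEF cells. It had 23.07, 21.96 and 35.5 CPM in WT-EF, 45.8, 30.5 and 61.9 CPM in Δ22, and 28.7, 21.7 and 24.5 CPM in DAF cells. The iLuc libraries were the lowest and the iEF libraries the highest, the WT-EF and DAF libraries overlapped, and the Δ22 libraries were spread from near the DAF level to the iEF level. The iLuc level of SOX5 was 4.46-fold below that of iEF (log2 fold change -2.16 ± 0.21 SE, adjusted p = 9.65e-07). WT-EF lowered it against iEF (-1.23 ± 0.20, adjusted p = 0.000277), and so did DAF (-1.32 ± 0.20, adjusted p = 0.000755). WT-EF and DAF differed by 0.09, with an interval of -0.37 to 0.56 (adjusted p = 0.793). WT-EF cells remained above iLuc cells by 0.93 ± 0.20 (adjusted p = 0.00514). The value for Δ22 over iEF was -0.47 ± 0.20 (adjusted p = 0.308), and without the replicate 3 libraries (adjusted p = 0.00829) or without a filter on low counts (adjusted p = 0.0343) SOX5 passed there too. DAF over Δ22 gave -0.86 ± 0.20 (adjusted p = 0.054), and passed without the replicate 3 libraries (adjusted p = 0.0365) or Δ22 replicate 2 (adjusted p = 0.0265).

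SOX6 (chromosome 11, 15987995 to 16761138, minus strand) was higher in cells with endogenous EWS/FLI, and WT-EF did not bring it back to that level. It had 45.6, 57.3 and 50.6 CPM in iLuc, 22.1, 24.3 and 16.2 CPM in iEF, and 26.1, 23.3 and 33.0 CPM in WT-EF cells. With Δ22 it had 25.4, 19.0 and 17.9 CPM and with DAF 32.9, 31.9 and 37.5 CPM. The iLuc libraries stood alone at the top, DAF libraries were above all iEF and Δ22 libraries, and WT-EF libraries overlapped those of iEF and of DAF. iLuc exceeded iEF by 1.30 ± 0.18 (log2, SE, adjusted p = 3.16e-05) and WT-EF was below iLuc (-0.90 ± 0.18, adjusted p = 0.00237), a difference lost without the replicate 2 libraries (adjusted p = 0.0807). WT-EF over iEF gave 0.40 ± 0.18 (adjusted p = 0.112), and passed without iEF replicate 2 (adjusted p = 0.0464), without a filter on low counts (adjusted p = 0.0248) and with DESeq2 on ComBat-adjusted counts (adjusted p = 0.0416). DAF over iEF was 0.71 ± 0.18 (adjusted p = 0.018). It was lost without the libraries of replicate 1 (adjusted p = 0.0738) or replicate 2 (0.0555), and without iEF replicate 1 (0.051), iEF replicate 3 (0.0964) or DAF replicate 3 (0.0996). The direct difference of WT-EF over DAF was -0.31, with an interval of -0.71 to 0.09 (adjusted p = 0.224), and passed without WT-EF replicate 3 (adjusted p = 0.0477).

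SOX13, the third SOXD gene, known from T cell and cartilage development (chromosome 1, 204042243 to 204096871, plus strand), had its highest means in iEF and Δ22 cells, as SOX5 did. It had 5.29, 4.83 and 4.57 CPM in iLuc, 12.98, 10.72 and 11.4 CPM in iEF, and 9.0, 6.0 and 4.47 CPM in WT-EF cells. In Δ22 cells it had 12.2, 8.89 and 10.8 CPM and in DAF cells 8.68, 7.49 and 7.61 CPM. iLuc and DAF libraries were all below the iEF libraries, and the WT-EF libraries ranged from the iLuc level to that of DAF. Against iEF it was lower in iLuc (-1.26 ± 0.16 on the log2 scale, SE, adjusted p = 1.94e-05), in WT-EF (-0.88 ± 0.16, adjusted p = 0.000721) and in DAF cells (-0.56 ± 0.16, adjusted p = 0.036). The last was the least stable. It was lost in the fit without the replicate block (adjusted p = 0.113) and when any replicate set or any of the 6 libraries compared was left out, with adjusted p from 0.0517 without the replicate 3 libraries to 0.229 without the replicate 2 libraries. WT-EF over iLuc gave 0.38 ± 0.17 (adjusted p = 0.133), and passed without WT-EF replicate 3 (adjusted p = 0.00472). WT-EF over DAF gave -0.32 ± 0.16 (adjusted p = 0.173), and passed without WT-EF replicate 1 (adjusted p = 0.0278).

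The SOXE gene SOX9, which turns on the cartilage matrix genes (chromosome 17, 70117161 to 70122557, plus strand), had the largest difference between iLuc and iEF of the 10. It had 15.6, 9.68 and 16.6 CPM in iLuc and 80.5, 81.7 and 85.1 CPM in iEF cells. With WT-EF it had 25.3, 24.7 and 27.2 CPM, with Δ22 80.9, 75.0 and 88.8 CPM, and with DAF 69.1, 63.3 and 66.9 CPM. The libraries fell into 4 levels without overlap, iLuc lowest, then WT-EF, then DAF, with iEF and Δ22 together at the top. The iLuc level of SOX9 was 5.98-fold below that of iEF (log2 fold change -2.58 ± 0.13 SE, adjusted p = 2.36e-09). WT-EF lowered it 3.21-fold against iEF (-1.68 ± 0.12, adjusted p = 2.9e-07), and it remained above iLuc by 0.90 ± 0.13 (adjusted p = 0.000197). DAF against iEF gave -0.31 ± 0.12 (adjusted p = 0.12), with DAF lower in 3 of 3 replicate sets, and passed when only those 6 libraries were fitted with the replicate block (adjusted p = 0.0379). The direct difference of WT-EF over DAF was -1.37 ± 0.12 (adjusted p = 4.09e-06). For Δ22 over iEF the value was -0.02 with an interval of -0.30 to 0.26 (adjusted p = 0.975). SOX9-AS1, an antisense gene over the same region (chromosome 17, 70063240 to 70233344, minus strand), had 2 to 19 counts per library.

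SOX8, a SOXE gene close to SOX9 and SOX10 (chromosome 16, 1031770 to 1036979, plus strand), varied strongly with the replicate set. It had 3.33, 4.68 and 4.57 CPM in iLuc and 3.81, 4.15 and 4.80 CPM in iEF cells. It had 7.42, 14.5 and 4.93 CPM in WT-EF, 4.51, 9.44 and 3.64 CPM in Δ22, and 8.58, 17.9 and 8.45 CPM in DAF cells. Replicate 2 was well above the others with each of the 3 constructs, while the 3 libraries of iLuc and of iEF lay close together. iLuc over iEF gave -0.05 ± 0.28 (log2, SE, adjusted p = 0.903). DAF over iEF gave 1.33 ± 0.28 (adjusted p = 0.00598), with 1.17, 2.11 and 0.82 within the 3 replicate sets, and was lost without the replicate 1 libraries (adjusted p = 0.0757) or the replicate 2 libraries (0.0844). WT-EF over iEF gave 0.93 ± 0.28 (adjusted p = 0.0192), with 0.96, 1.81 and 0.04 within the sets. It was lost in the fit without the replicate block (adjusted p = 0.0617) and without the replicate 1 (0.142) or replicate 2 libraries (0.228), iEF replicate 1 (0.0519) or 2 (0.108), or WT-EF replicate 1 (0.053) or 2 (0.101). WT-EF was above iLuc by 0.98 ± 0.28 (adjusted p = 0.0213), which was lost in the fit without the block (0.0818), without the replicate 1 (0.238) or replicate 2 libraries (0.209), and without replicate 1 (0.0753) or 2 (0.116) of iLuc, or 1 (0.0672) or 2 (0.122) of WT-EF. The direct difference of WT-EF over DAF was -0.40, with an interval of -1.01 to 0.21 (adjusted p = 0.311).

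SOX10, the factor of Schwann cells and melanocytes (chromosome 22, 38366693 to 38383429, minus strand), had 5, 8 and 3 counts in iLuc and 3, 5 and 1 in iEF libraries. It had 1, 1 and 2 counts in WT-EF, 5, 1 and 1 in Δ22, and 1, 5 and 0 in DAF libraries. These are at or near the limit of 3 counts that a count of 0 allows, no comparison passed, and no fold is read from them. Of its exon bases 5.39% lie opposite POLR2F, and the strand setting of the counting is not given in the sources used here.

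The first comparison asked what endogenous EWS/FLI does to these genes. Of the 10, 4 were higher (SOX2, SOX4, SOX6 and SOX12) and 3 lower (SOX5, SOX9 and SOX13) in iLuc than in iEF cells, and 3 (SOX8, SOX10 and SOX11) did not pass the test. Over all genes tested 19.5% were called higher and 22.1% lower. The list was drawn up with these results known, so its count is a description. The median log2 fold change of the 10 was 0.20, against 0.04 over all genes tested. Against a 2-fold change rather than against 0, SOX5 and SOX9 passed.

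Rescue with WT-EF against iEF asked how far the cDNA restores this. It raised SOX2, SOX4 and SOX8 and lowered SOX5, SOX9 and SOX13, that is 3 and 3 of 10, where 12.9% of all genes were called higher and 17.0% lower. SOX6, SOX10, SOX11 and SOX12 did not pass. The median log2 fold change was 0.07, against -0.01 over all genes. All comparisons against iEF share its 3 libraries, so whether rescue reached the iLuc level was read from WT-EF against iLuc directly. There 4 members were higher with WT-EF (SOX4, SOX5, SOX8 and SOX9) and 2 lower (SOX6 and SOX12), and without the replicate 2 libraries 3 were called. The shares of all genes in that comparison were 10.7% higher and 9.03% lower, and the medians were 0.38 for the members and -0.01 for all genes. SOX5 and SOX9 thus stayed above the level of cells never depleted, and SOX4 exceeded it. SOX6 and SOX12 were called below that level and SOX8 above it with all libraries. Without the replicate 2 libraries these calls were lost (adjusted p = 0.0807 for SOX6, 0.165 for SOX12 and 0.209 for SOX8). For SOX2 and SOX13 no difference was detected.

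With Δ22, which has the FLI DNA-binding domain and no EWS domain, no member passed against iEF by edgeR, where 0.472% of all genes were called higher and 0.830% lower. SOX4 and SOX5, that is 2 of 10, had an unadjusted p under 0.05, and DESeq2 called 0. The share of all genes at that unadjusted p is not given here. The members' median was -0.04 and that of all genes 0.01. The only call that appeared when libraries were left out was SOX5, without replicate 3.

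With DAF against iEF, SOX4, SOX6 and SOX8 were higher and SOX5 and SOX13 lower, so 3 and 2 of 10, where 5.00% of all genes were called higher and 6.19% lower. The median of the members was -0.24 and that of all genes 0.00. SOX4 and SOX5 passed whichever library or replicate set was left out, and SOX6, SOX8 and SOX13 did not. Without the replicate 1 or the replicate 2 libraries 2 members were called, and without iEF replicate 1, iEF replicate 3 or DAF replicate 3 there were 3.

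**Figure D3:**
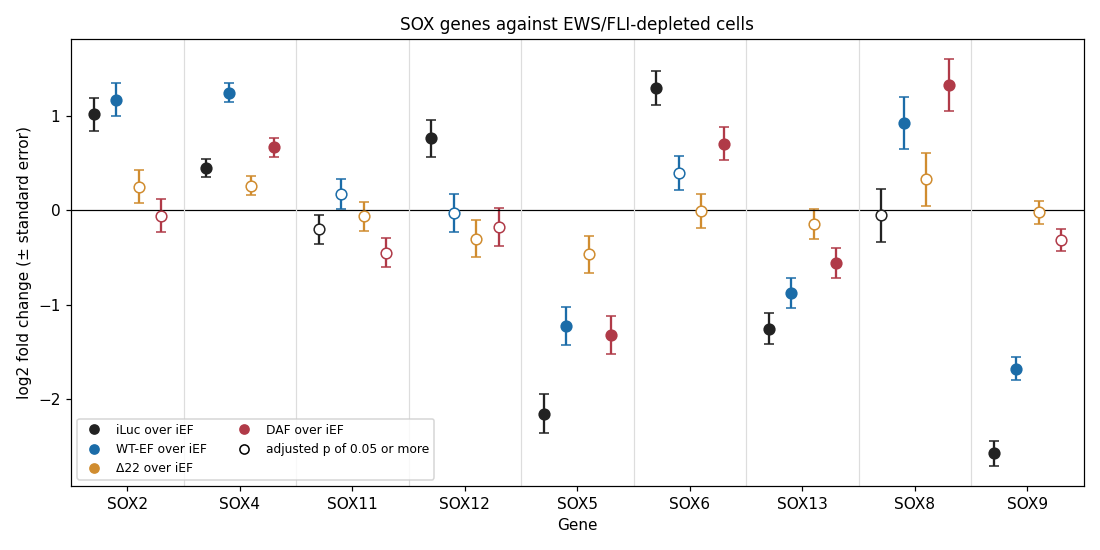
Log2 fold change over iEF (± SE) of 9 SOX genes in iLuc, WT-EF, Δ22 and DAF cells; filled points passed an adjusted p of 0.05 and SOX10 is not drawn. SOX2 and SOX9 lie far from 0 in iLuc and WT-EF cells. In DAF cells SOX2 lies near 0 and SOX9 somewhat below 0, neither of them filled. SOX5 lies near -1.2 to -1.3 with both WT-EF and DAF.

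The direct comparison of WT-EF with DAF asked what the changed tyrosines alter. SOX2, SOX4 and SOX11 were higher with WT-EF and SOX9 was lower, that is 3 and 1 of 10, where 12.4% of all genes were called higher and 16.1% lower. The members' median was -0.11 against -0.01 over all genes. For SOX5 the 95% interval of the difference, -0.37 to 0.56, included 0, whereas those of SOX2 (0.83 to 1.64) and SOX9 (-1.65 to -1.08) did not. An interval that includes 0 does not show that the levels were equal. FLI1 counts were lower with WT-EF than with DAF (log2 fold change -0.47, adjusted p = 0.00264).

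DAF against Δ22 gave no call among the members by edgeR over all 15 libraries, where 0.948% of all genes were called higher with DAF and 0.379% lower. At an unadjusted p under 0.05 there were 7 of 10 (SOX4, SOX5, SOX6, SOX8, SOX9, SOX11 and SOX13), and DESeq2 called 4, with SOX4, SOX6 and SOX8 higher with DAF and SOX5 lower. A fit of only the 6 libraries compared called 8, all but SOX10 and SOX12. The shares of all genes at the unadjusted p, with DESeq2 and in that fit are not given here. These counts are therefore not read as particular to the SOX genes. Without the replicate 3 libraries SOX4, SOX5 and SOX8 passed, and without Δ22 replicate 2 SOX5 did. The members' median was -0.28, and that of all genes -0.02.

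**Figure D4:**
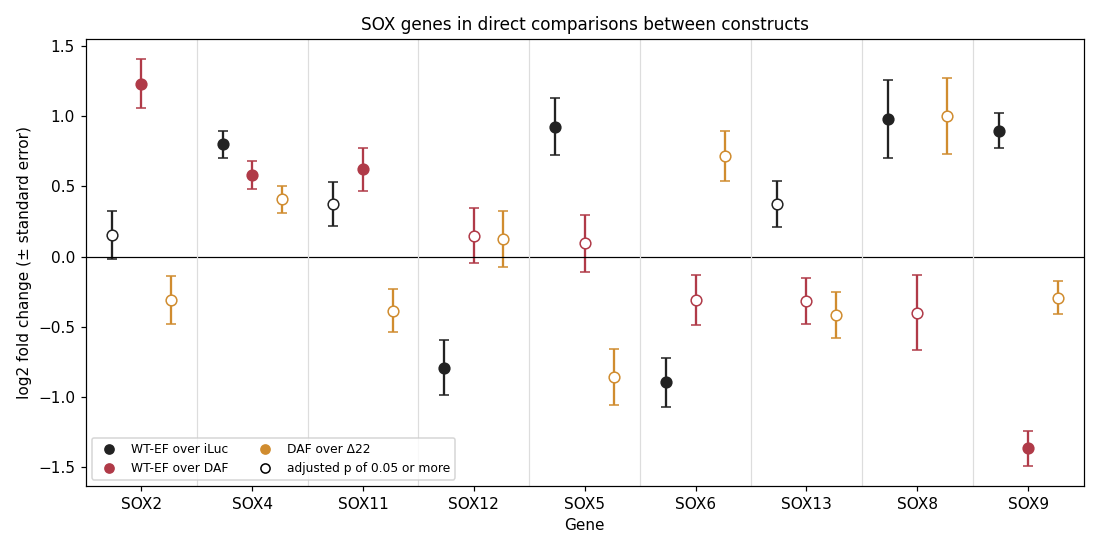
Log2 fold change (± SE) of 9 SOX genes in WT-EF over iLuc, WT-EF over DAF and DAF over Δ22; filled points passed an adjusted p of 0.05. SOX2 lies near 0 for WT-EF over iLuc and at 1.23 for WT-EF over DAF, SOX9 is at 0.90 and -1.37, and SOX5 is at 0.93 and 0.09.

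Of the 9 other SOX genes looked at, 7 were tested. SOX1, a SOXB1 gene like SOX2, had 42.7, 53.0 and 43.9 CPM in iLuc and 2.39, 2.87 and 1.80 CPM in iEF cells. It had 7.06, 12.0 and 12.4 CPM in WT-EF, 1.70, 2.06 and 0.715 CPM in Δ22, and 1.76, 2.30 and 1.91 CPM in DAF cells. The iLuc libraries were far above all others and the WT-EF libraries above those of iEF, Δ22 and DAF. SOX1 was higher in iLuc than in iEF cells by 4.31 ± 0.25 (log2, SE, adjusted p = 9.95e-09), and higher with WT-EF by 2.16 ± 0.24 (adjusted p = 1.04e-05). WT-EF was below iLuc (-2.15 ± 0.23, adjusted p = 2.12e-05) and above DAF (2.40 ± 0.25, adjusted p = 1.01e-05), and DAF over iEF gave -0.24 (adjusted p = 0.66). SOX15 stayed near 1 CPM and was not called. SOX17 and SOX18 were called lower in iLuc than in iEF cells at no more than 13 and 5 counts in any of those libraries, and SOX17 had 108 counts in Δ22 replicate 3 against 14 or fewer in the 14 other libraries. SOX7, SOX21 and SOX30 had 9 counts or fewer in every library and were not called, SOX3 had 0 or 1, and SOX14 had 0 in all.

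The POU and PAX factors that partner SOX proteins numbered 7, of which 6 were tested. In iLuc against iEF 3 rose and 1 fell, where 19.5% of all genes were called higher and 22.1% lower. The POU3F factors pair with SOX2 and SOX11 in neural cells, and POU3F1 (log2 fold change 3.42, adjusted p = 2.01e-09), POU3F3 (2.72, adjusted p = 0.00487) and POU3F2 (2.08, adjusted p = 7.17e-06) were higher in iLuc cells. POU3F3 was at low counts, 22, 53 and 17 in iLuc and 4, 0 and 10 in iEF libraries. PAX6, the eye and forebrain factor, was lower (-0.56, adjusted p = 0.00952). WT-EF raised POU3F1 (2.96) and POU3F2 (1.03) over iEF and lowered PAX6 (-0.68). POU3F1 and POU3F2 were also higher with WT-EF than with DAF (2.37 and 1.46). DAF over iEF raised POU3F1 (0.59, adjusted p = 0.0293) and lowered PAX3 (-0.38, adjusted p = 0.019) and PAX6 (-0.55, adjusted p = 0.0356), that is 1 and 2 of the 6, where 5.00% of all genes were called higher and 6.19% lower.

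Of 12 cartilage matrix genes that SOX9 with SOX5 and SOX6 is known to activate, 5 were lower and 2 higher in iLuc than in iEF cells, beside 22.1% and 19.5% of all genes. COL11A1, a cartilage collagen chain, was at 0.663 CPM in iLuc and 77.9 CPM in iEF cells (log2 fold change -6.91, adjusted p = 1.18e-07). HAPLN1, which links hyaluronan to aggrecan, was at 66, 94 and 127 counts in iLuc and 0 or 1 in iEF libraries (adjusted p = 3.63e-07). ACAN, the aggrecan core protein, was lower (-3.35, adjusted p = 0.00037), as was COL9A3 (-2.92, adjusted p = 1.39e-07). ACAN was at low counts, 1, 4 and 0 in iLuc and 12, 29 and 10 in iEF libraries. WT-EF against iEF lowered 6 of the 12, beside 17.0% of all genes, and DAF lowered 4 (COL2A1, COL9A3, COL11A1 and MATN3), beside 6.19%. Δ22 lowered COL9A3 (-1.64) and COL11A1 (-1.93) against iEF, that is 2 of 12, beside 0.830% of all genes. The part of SOX5, SOX6 and SOX9 in these differences was not tested.

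The list of 10 glial and melanocyte genes that SOX10 is known to activate had 9 tested, of which 2 were higher and 2 lower in iLuc than in iEF cells, beside 19.5% and 22.1% of all genes. EDNRB, the endothelin receptor of neural crest cells, was at 0.601 CPM in iLuc and 75.1 CPM in iEF cells (log2 fold change -6.95, adjusted p = 1.38e-09), and MBP, a myelin protein, was lower too (-1.78, adjusted p = 0.00213). RET, a receptor of enteric neural crest cells, was higher (3.17, adjusted p = 1.24e-06), as was ERBB3 (1.26, adjusted p = 0.017). ERBB3 was at low counts, 28, 21 and 25 in iLuc and 11, 13 and 7 in iEF libraries. SOX10 had 8 counts or fewer in every library, and its part in these differences was not tested. WT-EF against iEF raised 1 and lowered 2 of the 9, near the shares of all genes in that comparison (12.9% and 17.0%).

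Among 11 progenitor and neuronal genes linked to SOX2, SOX4 and SOX11, 8 were tested, and 2 were higher and 3 lower in iLuc than in iEF cells, beside 19.5% and 22.1% of all genes. LIN28B, an RNA-binding protein of stem cells, was higher (log2 fold change 4.87, adjusted p = 4.08e-08), as was the progenitor surface protein PROM1 (2.44, adjusted p = 6.37e-06). NES, the intermediate filament of neural progenitors, was lower (-3.23, adjusted p = 5.83e-08), from 321 CPM in iEF to 33.5 CPM in iLuc cells, and the neuronal tubulin TUBB3 was lower too (-1.22, adjusted p = 9.67e-05). In WT-EF against DAF LIN28B was higher (2.26, adjusted p = 6.73e-05) and NES was lower (-1.10, adjusted p = 0.00135).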

How the data were processed

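RNA-seq libraries of A673 cells were analysed, 3 for each of 5 conditions, grouped by the deposited labels. ScriptSeq libraries were made from 2.5 μg of total RNA. Per the study's methods, 150-base paired reads were aligned to hg19 with STAR and counted per gene with htseq-count in intersection-strict mode. For STAR, the submitters' processing notes name version 2.5.1b, and the study's methods another release of it. The deposited counts are whole numbers with no normalization. A further deposited table holds ComBat-adjusted values, decimal estimated counts, which were rounded and used only as an alternative, and a table of their own comparisons (base means, log2 fold changes, standard errors, adjusted p-values), which was not used. Among the columns of counts, 3 belong to other samples and were not used.

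Counts were fitted with edgeR 4.0.16 (R 4.3.3) by the quasi-likelihood test on all 15 libraries, with TMM scaling, condition and replicate set as terms, and genes averaging at least 1 count per library. P-values were adjusted by Benjamini-Hochberg over 28793 genes with a cutoff of 0.05. The replicate set was a block because the study adjusted each set as a batch. Deviations from the condition means correlated by a median r of 0.185 over 30 pairs of libraries with the same replicate number, 21 of them over 0.1, and by -0.0842 over 60 pairs with different numbers, across 13178 genes. Standard errors are the fold change divided by the root of F, and 95% intervals use 8 residual degrees of freedom, without the prior ones. Each adjusted p is from edgeR unless DESeq2 (1.42.0) is named. The study outlines a replicate as a full knockdown and rescue from transduction to harvest, so p-values cover the spread between 3 such sets in 1 cell line, and the limit of 3 counts for a count of 0 covers counting error only.

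Exon lengths and coordinates were from GENCODE v44lift37 on GRCh37; the authors' annotation release and strand setting are not given in the sources used here. Promoter windows were from RefSeq on GRCh38.p14. The members, the lists and the named genes (all members, FLI1, other SOX genes, overlapping genes and up to 4 called genes per list by size in iLuc against iEF) were chosen with earlier results of these data known. The fitting script was tested on simulated data with known changes. Alternatives were DESeq2 size factors, DESeq2 Wald tests on counts and on ComBat-adjusted counts, other filters, no block, only the libraries compared, a test against a 2-fold change, CPM on raw totals, and each replicate set or library left out.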

Additional observations from a re-analysis of the deposited data

How the results depend on the processing

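Depth limits SOX10, at 8 counts or fewer per library, whose fitted values given here are not measures of change, and 3 libraries per condition limit the rest. Of 1172 refits of single genes, 1020 kept direction and side of the cutoff, 43 gained and 62 lost the call, and 47 changed sign, none of these called in either fit. Without the replicate block, 7, 5, 0, 4, 5, 4 and 0 members were called in iLuc, WT-EF, Δ22 and DAF against iEF, WT-EF against iLuc, WT-EF against DAF and DAF against Δ22, where the fit with the block called 7, 6, 0, 5, 6, 4 and 0. Leaving out a replicate set or a library gave 6 to 7, 5 to 6, 0 to 1, 2 to 4, 3 to 7, 3 to 5 and 0 to 3 in the same order. The shares of all genes called in these refits are not given here. These counts, and those above with libraries left out, are therefore not read as particular to the SOX genes.

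Against a 2-fold change, 2 members passed in iLuc and 2 in WT-EF against iEF, 0 in DAF against iEF, 0 in WT-EF against iLuc and 1 in WT-EF against DAF, since this test asks for a larger difference. Without a filter on low counts Δ22 against iEF had 1 call and DAF against Δ22 had 5. DAF against Δ22 also had 4 with DESeq2, 3 with DESeq2 on ComBat-adjusted counts and 8 when only those 6 libraries were fitted. The cause of these differences between settings was not tested, and the shares of all genes in these settings are not given here. On raw library totals, mean CPM was 57.5 for SOX5, 76.4 for SOX9 and 215 for SOX11 in iEF, 28.0 for SOX9 in WT-EF, 17.3 for SOX12 in iLuc, 7.31 for SOX12 in Δ22, and 53.0 and 19.1 for FLI1 in iLuc and WT-EF cells.

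SOX12 in WT-EF against iEF was 0.0124 with DESeq2 size factors, 0.0123 with DESeq2 and 0.0055 with DESeq2 on ComBat-adjusted counts. SOX6 in Δ22 against iEF was 0.0072, 0.0068 and 0.0196 in the same order, 4.23e-05 without a filter and 0.0036 with filterByExpr. With a replicate set or library left out, log2 fold changes ranged from -0.38 to 0.24 for SOX8 in iLuc against iEF and from -0.40 to 0.19 for SOX12 in WT-EF against iEF. In Δ22 against iEF they ranged from -0.10 to 0.50 for SOX2, -0.19 to 0.18 for SOX6, -0.0777 to 0.72 for SOX8, -0.0591 to 0.0600 for SOX9, -1.56 to 0.71 for SOX10 and -0.15 to 0.0595 for SOX11. They ranged from -0.28 to 0.20 for SOX2 in DAF against iEF, and from -2.18 to 1.05 for SOX10 in DAF against Δ22. In WT-EF against DAF they ranged from -0.12 to 0.27 for SOX5, -1.54 to 1.17 for SOX10 and -0.21 to 0.38 for SOX12.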
